A study of Mus musculus with 15 samples.

Results

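The genes described here are 35 genes of cell proliferation and mitosis, measured by bulk RNA sequencing of mouse liver. They were taken by name from a fixed list of 35 symbols, and the deposited counts of their transcripts were summed per symbol. They make up 35 of the 35540 gene symbols in the table. Of these, 34 passed the filter on low counts and stood among the 13916 genes that were tested. The exception was Bub1, a spindle checkpoint kinase, with a mean of 5.2 counts per library and 0 counts in 2 libraries, and it was the one member with a mean count below 10. All 15 libraries came from liver of mice fed a high-fat diet for 8 weeks. They formed 3 groups of 5 by genotype: wild type (WT), a knock-in of the C247S change in TXNIP (C247S KI) and a Txnip knockout (KO). TXNIP is the thioredoxin-interacting protein, and the series title places its covalent bond with thioredoxin at the centre of the study. The sources used here do not give the age, sex or strain of the mice, or whether the Txnip deletion spans the whole body or one tissue. Whether every library stands for its own animal is also left unsaid in the labels. The p-values therefore measure only library-to-library spread, which may in part be technical.

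A cell that divides first licenses its replication origins by loading the MCM2-7 helicase, then fires them with CDC45 and GINS under cyclin E and cyclin A kinases, and copies its DNA on the PCNA clamp with deoxynucleotides supplied by ribonucleotide reductase and thymidine kinase. It then enters mitosis under cyclin B and CDK1, builds a spindle with the Aurora and Polo kinases and the motor KIF11, and leaves mitosis when CDC20 and UBE2C let the anaphase-promoting complex destroy the cyclins. E2F factors switch on the first set of genes and FOXM1 the second. Most hepatocytes of an adult liver rest outside the cycle, so whole-liver RNA holds little of these transcripts, from hepatocytes and from any other dividing cell in the tissue. In whole tissue, fewer cells of a type and less RNA per cell cannot be told apart.

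Many proliferation genes are known to be read through short promoter motifs: the CCAAT box bound by NF-Y, the cell cycle homology region (CHR) and E2F sites. The stretches below lie just before the annotated starts of the members that passed the test in either knockout comparison, and that of Cdk1 is added, after the matches were seen, because it holds all 3 kinds of motif. They are shown to let a reader compare the promoters of members that moved in different directions. Sequences are from RefSeq on GRCm38.p6, written 5′ to 3′ along the gene's strand with motif letters in capitals, and the last bases of each window are left out where GENCODE M21 places an exon of the gene. No promoter entry was found for Foxm1.
Tk1, chr11:117826093-117826264, minus strand: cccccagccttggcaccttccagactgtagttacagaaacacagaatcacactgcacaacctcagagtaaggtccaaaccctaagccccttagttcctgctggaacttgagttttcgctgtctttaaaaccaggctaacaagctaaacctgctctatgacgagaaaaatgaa
Rrm2, chr12:24708004-24708240, plus strand: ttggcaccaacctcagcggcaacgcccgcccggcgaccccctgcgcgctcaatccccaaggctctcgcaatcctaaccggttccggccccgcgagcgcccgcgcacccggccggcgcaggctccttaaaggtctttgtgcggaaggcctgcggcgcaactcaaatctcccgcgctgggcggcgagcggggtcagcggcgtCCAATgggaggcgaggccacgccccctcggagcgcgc
Ccne1, chr7:38107535-38107740, minus strand: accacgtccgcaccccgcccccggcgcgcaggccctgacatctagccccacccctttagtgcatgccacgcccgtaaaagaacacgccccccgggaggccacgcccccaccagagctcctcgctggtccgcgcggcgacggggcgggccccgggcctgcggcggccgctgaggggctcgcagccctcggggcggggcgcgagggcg
Cdk1, chr10:69352939-69353162, minus strand: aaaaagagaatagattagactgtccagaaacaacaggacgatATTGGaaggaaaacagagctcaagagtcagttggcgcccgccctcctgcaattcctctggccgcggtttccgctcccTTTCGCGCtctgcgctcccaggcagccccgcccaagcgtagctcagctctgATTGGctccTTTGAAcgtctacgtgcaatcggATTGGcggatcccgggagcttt

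The motifs searched on both strands of the 250 bases before the RefSeq start were CCAAT, the CHR forms TTTGAA and TTCGAA, and the E2F forms TTTCCCGC, TTTGGCGC, TTTCGCGC and TTTGCCGC, none of which contains another. The Rrm2 window held 1 match, a CCAAT box 50 to 46 bases upstream of the start. The Tk1 and Ccne1 windows held no match in these letters, which says nothing of whether the factors bind there. The Cdk1 window held 3 CCAAT boxes on the opposite strand, 2 TTTGAA elements, of which 1 lies in the stretch shown, and 1 TTTCGCGC. Of the 35 members, 29 had an entry in the promoter table. A CCAAT box was found in 23 of the 29 (79.3%), beside 33.8% of all 32851 promoter windows, a CHR element in 12 (41.4%, beside 17.1%) and an E2F site in 6 (20.7%, beside 1.86%). These shares differ in unit: a member was counted if any of its windows matched, and all promoters were counted window by window. A gene with several windows would have more chances of a match. The base composition also differed among the windows: 49.6% of the Tk1 window was G or C, beside 72.4% for Rrm2, 76.0% for Ccne1, 56.4% for Cdk1 and a median of 52.4% over all windows.

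Libraries held 18047577 to 23379940 estimated counts. Hepatocyte markers summed to between 59350 and 124800 CPM (counts scaled to a common library total with TMM factors) in every library, as the tissue label says. Txnip, the targeted gene, was lower in KO (99.0 ± 24.9 CPM, SD, n = 5) than in WT (222 ± 56.2), with no overlap (log2 difference -1.17, SE 0.24, edgeR adjusted p = 0.00887). Transcripts of the gene were thus still counted in every KO library, and C247S KI 3, at 99.9 CPM, lay inside the KO range of 70.9 to 123.5. Over all genes, 12 of 13916 passed an adjusted p below 0.05 in C247S KI against WT (0.0862%, of which 0.0647% were higher and 0.0216% lower). In KO against WT 939 genes passed (6.75%, with 2.56% higher and 4.19% lower), and in KO against C247S KI 1427 (10.3%, with 4.41% higher and 5.85% lower). One library, KO 5, stood apart for the genes described here and for markers of several blood and liver cell types. The calls, median differences and summed level of the members are given with and without it.

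On the TPM scale, which divides counts by transcript length before scaling, the members spanned a wide range of levels in WT liver. Pcna, the sliding clamp that also serves DNA repair, was highest at 28.8 ± 1.54 TPM (SD, n = 5), followed by Tk1, cytosolic thymidine kinase, at 20.7 ± 3.75, Rrm2, the small subunit of ribonucleotide reductase, at 13.1 ± 2.50, and Mcm7 at 10.4 ± 1.74. The spreads of Rrm2 and Mcm7 met. At the low end were Cdc6, which loads the helicase, at 0.412 ± 0.232 TPM and Bub1 at 0.197 ± 0.157. The median over the 35 members was 2.22 TPM, below the 7.02 TPM that was the median of the 13916 tested genes. Of the 35, 29 lay under that median. In KO the order at the top changed: Tk1 stood first at 38.1 ± 6.19 TPM, above Pcna at 22.9 ± 1.80, and Rrm2 at 6.28 ± 1.95 came behind Mcm7 at 9.73 ± 1.60.

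Against WT, 3 of the 34 tested members passed the threshold in KO. Tk1 rose, while Rrm2 and Ccne1, the cyclin that opens S phase, fell. That is 8.82% of the members beside 6.75% of all genes, a share near the background. Most of the others had lower means in KO without passing: 25 of 34 had a log2 difference below 0, with a median of -0.26, beside 51.3% of all tested genes below 0 with a median of -0.01. Differences ran from -0.98 for Ccne1 to 0.97 for Tk1. An unadjusted p below 0.05 was found for 8 of 34 members, beside 3239 of 13916 genes, a share near the background. Against C247S KI, 4 members passed: Tk1 rose, and Rrm2, Ccne1 and Foxm1 fell. That is 11.8% of the members beside 10.3% of all genes, again near the background. Here too 25 of 34 were below 0 (median -0.30, beside -0.03 over all genes). An unadjusted p below 0.05 was found for 13, beside 3754 of 13916 genes. The all-gene count of each comparison also stands beside the counts per role and list given below. Both comparisons use the same 5 KO libraries, so they are not independent of each other. Without KO 5 the median difference from WT was -0.15, with 23 of 34 below 0, and Tk1 and Rrm2 were called. Against C247S KI it was -0.18, with 24 of 34 below 0, and Tk1 was the only member called.

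**Figure D1:**
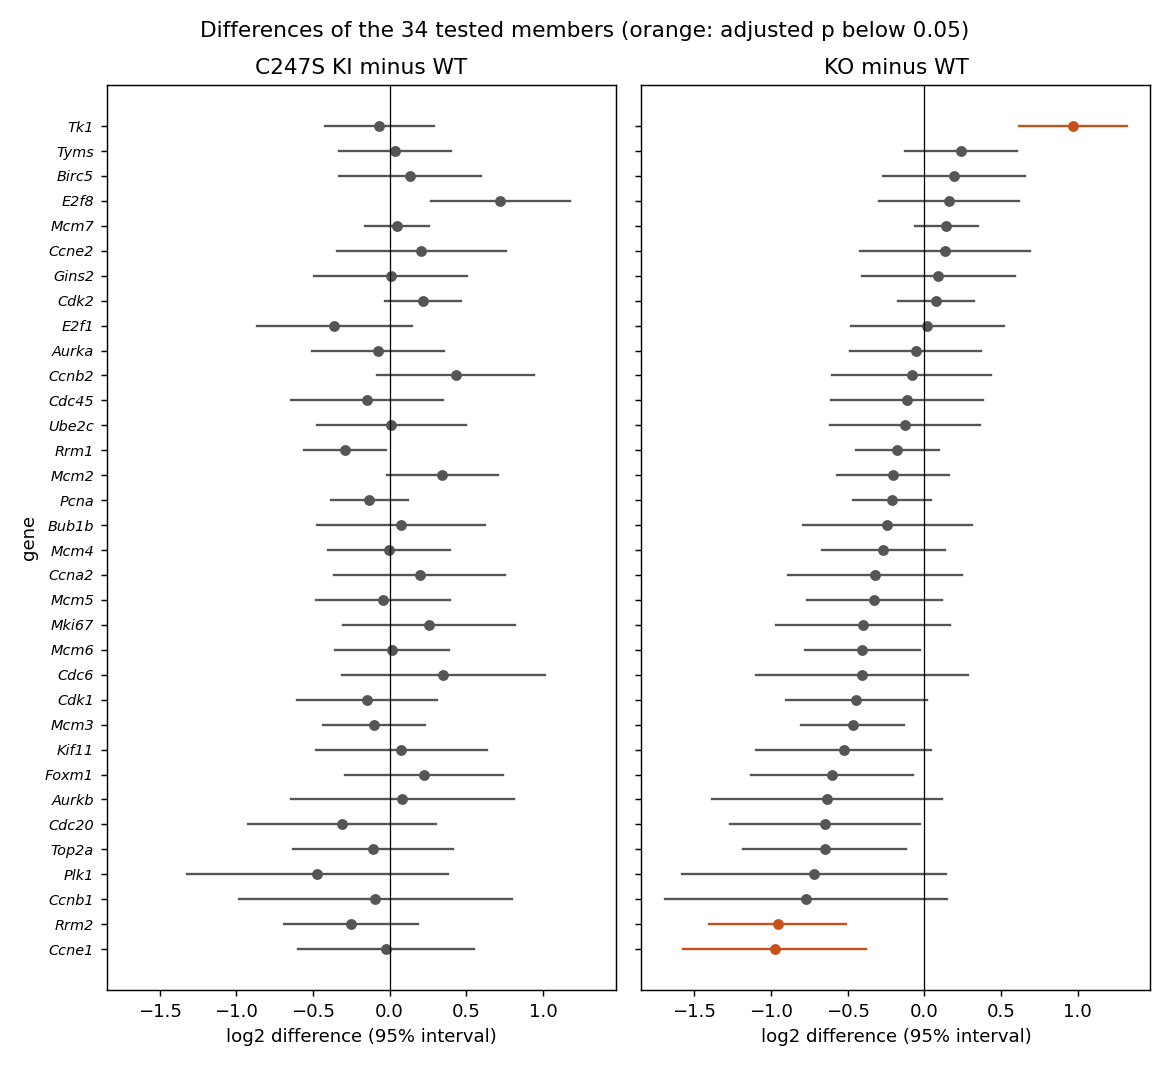
Log2 difference from WT (horizontal axis) of the 34 tested members, ordered by KO minus WT, for C247S KI (left) and KO (right). Points are fitted differences, bars their 95% intervals, and orange marks an adjusted p below 0.05. Tk1 stands alone on the right of the KO panel at 0.97, Rrm2 and Ccne1 lie at -0.96 and -0.98, and no member is orange in the C247S KI panel.

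Between the C247S knock-in and WT, none of the 34 tested members passed in edgeR, DESeq2 or limma-voom. Over all genes, 12 of 13916 (0.0862%) passed in edgeR, so few calls could fall among 34 members. There were 16 differences below 0 and 18 above, with a median of 0.01. An unadjusted p below 0.05 was found for 2 members, beside 1371 of 13916 genes. The interval of the difference lay within 1 log2 unit of 0 for 31 of 34 members, which still allows changes of nearly 2-fold. Data were simulated with the mean levels and dispersions of all 15 libraries, and 200 genes were changed in C247S KI. Of genes changed 1.5-fold with a mean count under 100, 1.41% were recovered. At 2-fold this was 26.5%. One of the 2 members with an unadjusted p below 0.05 was E2f8, described with the transcription factors below. It is an atypical E2F that represses E2F targets and supports polyploidy of hepatocytes. The other was Rrm1, the large subunit of ribonucleotide reductase, with 12.0, 10.98, 10.2, 9.22 and 9.74 CPM in C247S KI and 13.1, 11.2, 14.6, 12.8 and 12.1 CPM in WT. The groups overlapped, at a log2 difference of -0.29 (SE 0.13, 95% interval -0.56 to -0.02, edgeR adjusted p = 0.484).

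Among the genes that supply nucleotides and hold the polymerase, 1 of 5 rose in KO against WT and 1 fell. Tk1, which phosphorylates thymidine salvaged from outside the cell, lies at chr11:117815526-117826092 on the minus strand (GRCm38). It was at 38.2, 31.1, 28.7, 31.8 and 26.1 CPM in KO 1 to KO 5. In WT it was at 21.1, 16.1, 16.1, 11.9 and 14.3 CPM, and in C247S KI at 18.03, 16.7, 17.9, 12.9 and 10.5 CPM. Every KO library was above every other library. The difference was 0.97 from WT (SE 0.17, 95% interval 0.62 to 1.32, 1.96-fold, edgeR adjusted p = 0.00316) and 1.04 from C247S KI (SE 0.17, 2.05-fold, adjusted p = 0.00116). C247S KI minus WT was -0.07 (95% interval -0.42 to 0.29, adjusted p = 0.909). Tk1 remained called against both groups in all 20 alternatives of each, KO 5 left out included.

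Rrm2, whose subunit sets the activity of the reductase that makes deoxynucleotides anew, lies at chr12:24708241-24714146 on the plus strand. It was at 11.6, 8.04, 11.5, 8.76 and 6.40 CPM in KO. In WT it was at 20.7, 10.9, 22.6, 19.1 and 16.8 CPM, and in C247S KI at 13.0, 20.3, 11.01, 17.6 and 13.8 CPM. The low library of WT, WT 2, and C247S KI 3 lay inside the KO range and the others above it. Rrm2 fell by 0.96 on the log2 scale from WT (SE 0.21, 95% interval -1.41 to -0.51, edgeR adjusted p = 0.0127), and the call held in all 20 alternatives. Against C247S KI it fell by 0.71 (SE 0.21, adjusted p = 0.0415). That call was lost in limma-voom (0.0557) and when any of 7 libraries of the groups compared was left out (C247S KI 1, 2, 4 or 5, KO 2, 4 or 5, with an adjusted p of up to 0.114). It was lost as well without WT 4 or WT 5, which enter that fit through the shared spread.

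Tk1 and Rrm2, which serve the 2 routes to deoxynucleotides, thus moved in opposite directions in the knockout. Their ratio was computed after these values had been seen and is given without a test. There were 2.49 to 4.08 Tk1 counts per Rrm2 count in KO libraries, beside 0.622 to 1.47 in WT and 0.729 to 1.63 in C247S KI. The highest ratio was that of KO 5, where most other members were lowest.

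**Figure D2:**
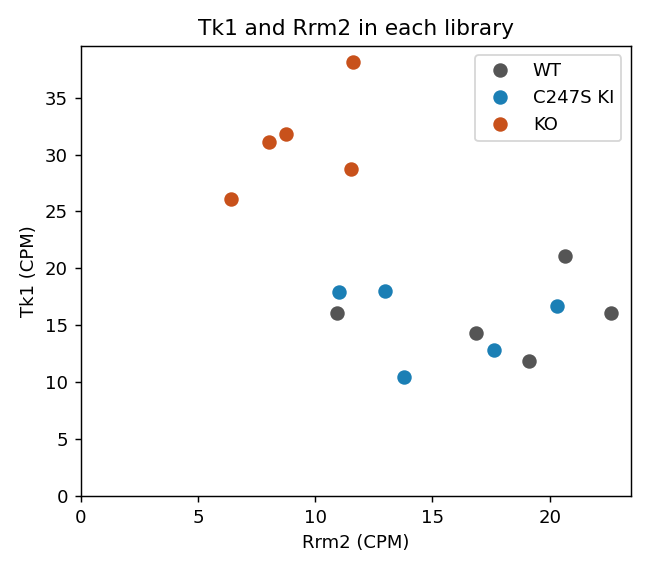
Tk1 (vertical axis) against Rrm2 (horizontal axis), both in CPM, with 1 point per library and colours for the genotypes. The 5 KO points lie at the upper left, above 26 CPM of Tk1 and under 12 CPM of Rrm2, and the WT and C247S KI points are mixed with each other.

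The other 3 genes of this group did not pass. Pcna was at 24.3, 25.0, 20.5, 26.7 and 22.4 CPM in KO, at 32.4, 26.3, 26.9, 29.3 and 22.8 CPM in WT and at 28.8, 26.4, 23.2, 27.4 and 19.9 CPM in C247S KI. The groups overlapped (KO minus WT -0.21, SE 0.12, 95% interval -0.46 to 0.04, edgeR adjusted p = 0.305). Rrm1 and Tyms, thymidylate synthase, had KO minus WT differences of -0.18 and 0.24, both with intervals that span 0.

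The source of the Tk1 counts was looked at by transcript. Its coding transcript ENSMUST00000026661 held 73.9% of the counts, and the rest stood on retained-intron transcripts. The coding transcript had 649, 435, 401, 542 and 351 counts in KO, 342, 282, 255, 164 and 180 in WT and 303, 248, 234, 173 and 144 in C247S KI. With only protein-coding transcripts, Tk1 was still called against WT (edgeR adjusted p = 0.0177) and C247S KI (0.00638). Tk1 overlaps the antisense gene Afmid and the transcript gene Gm20708, and the sources used here do not say whether the counting used strand. Neither passed in KO against WT: Afmid differed by 0.44 (adjusted p = 0.262) and Gm20708 by 1.43 (0.204). In all, 16 of the 35 members overlap another annotated gene, and 4 (Pcna, Tyms, Ccnb1 and Ccnb2) have a pseudogene named after them, so that reads may have been divided among copies before deposit. Foxm1 overlaps 2 genes on its own strand, Tex52 and Gm44596. Mcm7 overlaps 5 genes, 3 of them on its own strand, and Rrm1, Top2a and Kif11 overlap 1 each on their own strand. The levels of the genes that overlap these 5 members were not read.

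Of the 7 cyclins and kinases of S phase and mitosis, 1 fell in KO against WT and none rose. Ccne1 (chr7:38097984-38107534, minus strand) was at 0.655, 1.25, 1.33, 1.45 and 0.712 CPM in KO. It was at 1.97, 1.44, 1.88, 2.89 and 2.54 CPM in WT and at 1.66, 1.64, 3.08, 1.74 and 2.42 CPM in C247S KI. All KO libraries were below all C247S KI libraries, and KO 4 lay just above WT 2. These levels rest on 13 to 58 counts per library. Ccne1 fell by 0.98 on the log2 scale from WT (SE 0.28, 95% interval -1.57 to -0.38, edgeR adjusted p = 0.0473) and by 0.96 from C247S KI (SE 0.28, adjusted p = 0.0401). Both calls were near the threshold. The call against WT was lost when any WT or KO library other than WT 2 was left out, with an adjusted p of up to 0.119 (without WT 4). All 15 libraries share the estimate of spread, and of the C247S KI libraries, leaving out 1, 2 or 4 also lost it while leaving out 3 or 5 did not. It was also lost in limma-voom (0.0572), with no count filter (0.0699) and with only protein-coding transcripts (0.0588). The call against C247S KI was lost without C247S KI 1, 3 or 5 or KO 1, 2, 3 or 5, with no count filter, with only protein-coding transcripts and with the 2 groups alone. Its adjusted p reached 0.192 without WT 1, C247S KI 3 and C247S KI 5.

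Cdk2, the kinase partner of the E and A cyclins, was the most abundant of this group. It was at 10.5, 11.9, 11.3, 9.85 and 11.2 CPM in KO, 10.2, 10.8, 10.2, 9.18 and 11.6 CPM in WT and 12.9, 10.8, 14.0, 9.44 and 13.3 CPM in C247S KI. The groups overlapped (KO minus WT 0.08, SE 0.12, 95% interval -0.17 to 0.33, edgeR adjusted p = 0.743). Ccne2, Ccna2, Cdk1, Ccnb1 and Ccnb2 had KO minus WT differences of -0.77 (Ccnb1) to 0.13 (Ccne2), and none passed. Against C247S KI all 7 of the group had differences below 0.

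**Figure D3:**
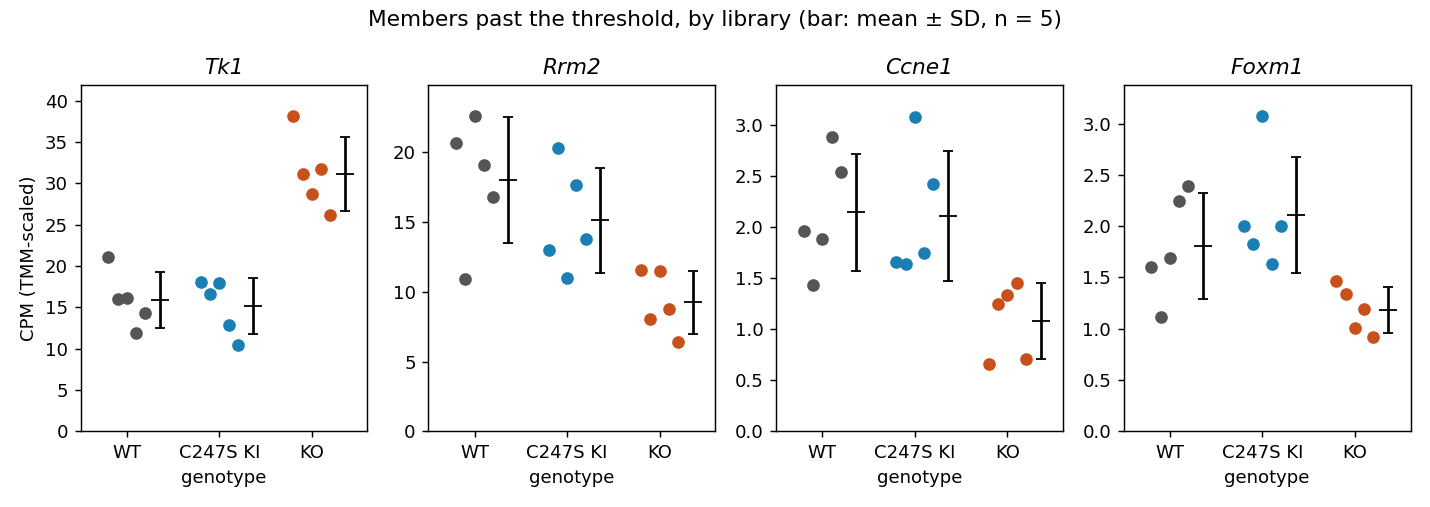
Level in CPM (vertical axis, from 0) of Tk1, Rrm2, Ccne1 and Foxm1 in each library by genotype, with the mean ± SD of 5 libraries beside the points. For Tk1 the KO points lie above all others, from 26.1 CPM up, and for the other 3 genes the KO points lie in the lower part of each panel.

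None of the 9 genes of origin licensing and the replicative helicase passed in edgeR in any comparison, with 2 at an unadjusted p below 0.05 against WT and 4 against C247S KI. DESeq2 called 1 of them, Mcm2 in KO against C247S KI, and limma-voom none. Against WT, Mcm3 came nearest: it was at 4.28, 4.21, 4.82, 4.87 and 2.999 CPM in KO, at 5.12, 6.47, 6.27, 5.43 and 6.003 CPM in WT and at 4.31, 6.26, 6.73, 4.78 and 5.31 CPM in C247S KI. All KO libraries were below all WT libraries, but the difference of -0.47 (SE 0.16, 95% interval -0.81 to -0.13) had an edgeR adjusted p of 0.0833. With only protein-coding transcripts it passed (-0.55, adjusted p = 0.0491), and without KO 5 the edgeR adjusted p of Mcm3 was 0.192. Mcm7, the most abundant helicase subunit, went the other way in its means: 13.9, 16.4, 15, 14.2 and 13.4 CPM in KO, 13.1, 12.7, 14.9, 11.8 and 13.4 CPM in WT, and 12.3, 14.4, 15.1, 13.1 and 13.4 CPM in C247S KI. The groups overlapped (0.14, SE 0.10, 95% interval -0.06 to 0.35, adjusted p = 0.408). The other subunits of the hexamer, Mcm2, Mcm4, Mcm5 and Mcm6, had KO minus WT differences of -0.40 to -0.21, and Cdc6 of -0.41. Mcm2 against C247S KI was close to the threshold (-0.55, SE 0.17, adjusted p = 0.0526). Gins2 is uncertain, since 74.3% of its counts stood on a retained-intron transcript.

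Of the 3 transcription factors, Foxm1 was called in one comparison. Foxm1 (chr6:128362967-128376146, plus strand) was at 1.46, 1.34, 1.01, 1.19 and 0.915 CPM in KO, at 1.60, 1.12, 1.69, 2.25 and 2.39 CPM in WT and at 2.003, 1.83, 3.08, 1.63 and 2.01 CPM in C247S KI. KO lay wholly below C247S KI and overlapped WT. Foxm1 fell by 0.83 on the log2 scale from C247S KI (SE 0.25, 95% interval -1.35 to -0.30, edgeR adjusted p = 0.0436), on 18 to 54 counts per library. From WT its difference was -0.60 (SE 0.25, 95% interval -1.13 to -0.07, adjusted p = 0.154). The call was lost in limma-voom (0.0539), with no count filter (0.0838), with the replicate number as a block (0.0723) and without C247S KI 1, 2, 3 or 5, KO 2, 3, 4 or 5 or WT 3 or 4. Without C247S KI 3 alone, the library with the highest level, the difference was -0.66 (adjusted p = 0.0738). Without WT 1, C247S KI 3 and C247S KI 5 it was -0.63 (adjusted p = 0.149).

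E2f8 was at 11.1, 12.4, 22.5, 22.6 and 20.9 CPM in C247S KI, beside 8.59, 9.26, 8.64, 12.3 and 15.5 CPM in WT and 14.6, 11.1, 12.8, 12.3 and 9.81 CPM in KO. Within C247S KI, 3 libraries stood above all other libraries of the series and 2 among the WT values. The difference from WT was 0.72 (SE 0.22, 95% interval 0.27 to 1.18), with an edgeR adjusted p of 0.318. KO minus WT was 0.16 (SE 0.22, 95% interval -0.29 to 0.62, adjusted p = 0.700). E2f1, an activating E2F, differed by 0.02 between KO and WT and by -0.36 between C247S KI and WT, and both intervals span 0.

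The genes of chromosomes, the spindle and mitotic kinases held no call in edgeR, DESeq2 or limma-voom, with 1 at an unadjusted p below 0.05 against WT and 3 against C247S KI. Of the 8 tested, 7 had KO minus WT differences below 0, with a median of -0.46, and -0.26 without KO 5. Mki67, the marker of cycling cells, was at 6.05, 8.32, 5.69, 7.41 and 2.19 CPM in KO, at 6.57, 5.19, 9.36, 11.1 and 7.07 CPM in WT and at 8.75, 11.5, 10.3, 8.37 and 8.02 CPM in C247S KI. Its KO minus WT difference of -0.40 (SE 0.27, 95% interval -0.97 to 0.17) had an edgeR adjusted p of 0.395. Top2a, the topoisomerase that untangles sister chromatids, was at 7.56, 6.93, 4.18, 5.08 and 2.49 CPM in KO, at 8.38, 5.87, 8.83, 10.6 and 7.68 CPM in WT and at 7.19, 7.51, 11.1, 5.68 and 6.85 CPM in C247S KI. The groups overlapped (-0.65, SE 0.25, 95% interval -1.18 to -0.12, adjusted p = 0.125). Plk1, Aurkb and Kif11 had differences of -0.72, -0.64 and -0.53, Aurka and Birc5 of -0.06 and 0.19. In the fit with no count filter, Bub1 differed by -0.75 (SE 0.84).

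The pair that serves the anaphase-promoting complex did not pass either, in any of the 3 tools, with 1 unadjusted p below 0.05 against WT. Cdc20, its activator, was at 1.11, 1.76, 1.42, 1.19 and 0.712 CPM in KO, at 2.48, 1.16, 2.12, 2.37 and 1.68 CPM in WT and at 0.958, 1.35, 2.34, 1.91 and 1.38 CPM in C247S KI. The groups overlapped (KO minus WT -0.65, SE 0.29, 95% interval -1.27 to -0.03, edgeR adjusted p = 0.190, and 0.368 without KO 5). Ube2c, its ubiquitin-conjugating enzyme, was at 1.21, 1.66, 1.29, 1.92 and 1.68 CPM in KO, at 1.45, 1.72, 1.98, 1.85 and 1.48 CPM in WT and at 2.61, 1.35, 1.54, 1.24 and 1.76 CPM in C247S KI. Here too the groups overlapped (-0.13, SE 0.23, 95% interval -0.62 to 0.36, adjusted p = 0.786).

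The depth limits what these comparisons could show. Data were simulated with the mean levels and dispersions of all 15 libraries, and 200 genes were changed in KO. In KO against WT, 27% of genes changed 1.5-fold and 72% of genes changed 2-fold were recovered. Among genes with a mean count under 100, where most cyclins, kinases and spindle genes lie, these shares were 0% and 30.2%. In the data 939 genes passed in this comparison. The adjusted threshold is stricter when few genes change, so the simulated shares may be too low for the data.

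Seen across genes, 1 library accounts for much of the spread in KO. KO 5 was the lowest of all 15 libraries for 20 of the 35 members, the lowest of its group for 26 and the highest of its group for none. The same counts were not made over all tested genes, so they are not read as particular to the members. In a principal component analysis of all tested genes, KO 5 had the highest value of the 15 libraries on the first component (44.7) and on the second (38.7). The summed level of all 35 members was 151 CPM in KO 5 and 203, 200, 182 and 195 CPM in KO 1 to KO 4. It was 175 to 210 CPM in WT and 187 to 220 CPM in C247S KI. The means were 186 ± 21.3 in KO, 197 ± 14.3 in WT and 199 ± 14.8 in C247S KI (SD, n = 5), a KO to WT difference of -0.08 on the log2 scale. With KO 5 left out and Tk1 kept, that difference was -0.016. Tk1 weighs on the summed level. Without it, KO had 165, 169, 154, 164 and 125 CPM, WT 159 to 195 CPM and C247S KI 174 to 202 CPM. KO minus WT was then -0.23, with KO 5 kept. No difference was computed with both Tk1 and KO 5 left out. In the spindle and chromosome group KO 5 was lowest at 11.5 CPM, beside 21.4 to 28.1 CPM in the other KO libraries, 21.8 to 37.3 CPM in WT and 24.9 to 38.3 CPM in C247S KI. At the other end, C247S KI 3 was the highest of all 15 libraries for 9 members, again with no count over all genes beside it.

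**Figure D4:**
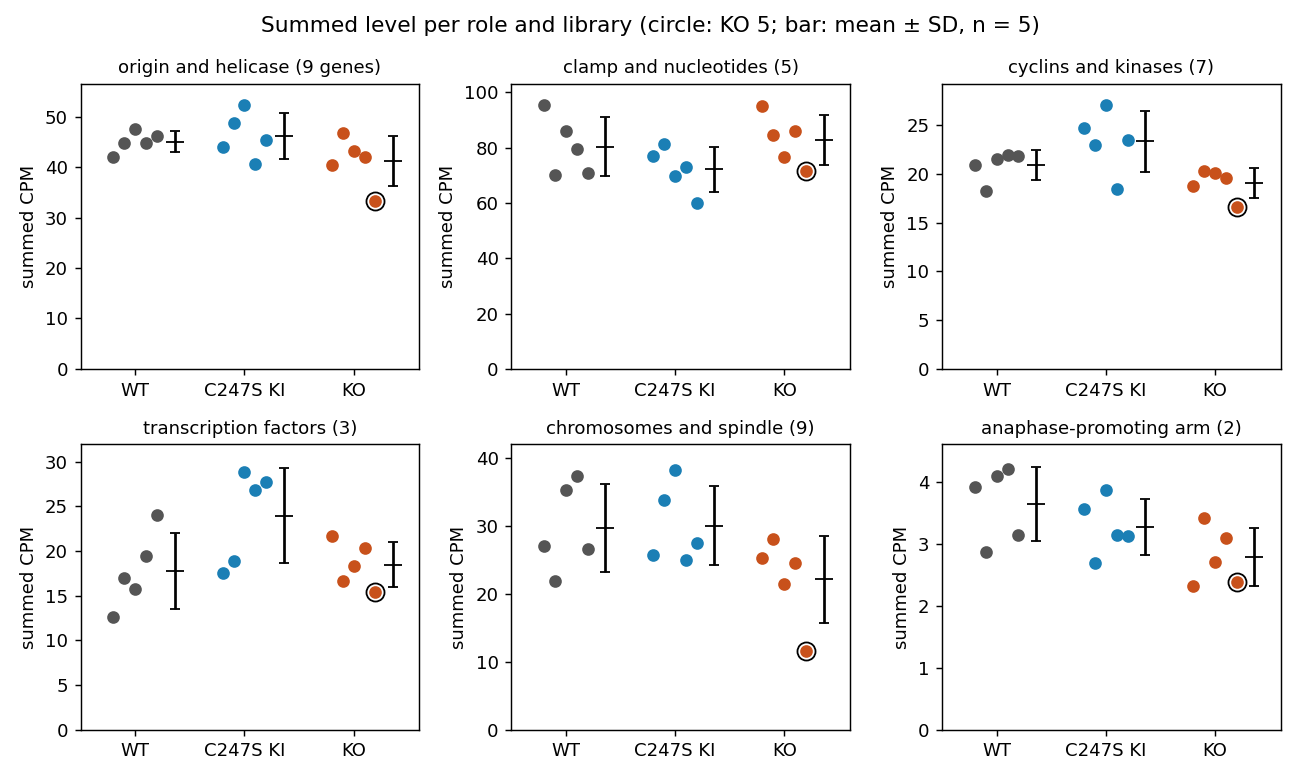
Summed level in CPM (vertical axis, from 0) of the members of each of the 6 role groups, with 1 point per library and the mean ± SD of 5 libraries. The circled point is KO 5, which is lowest of all libraries for the chromosome and spindle group at 11.5 CPM but not for the clamp and nucleotide group, which holds Tk1.

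**Figure D5:**
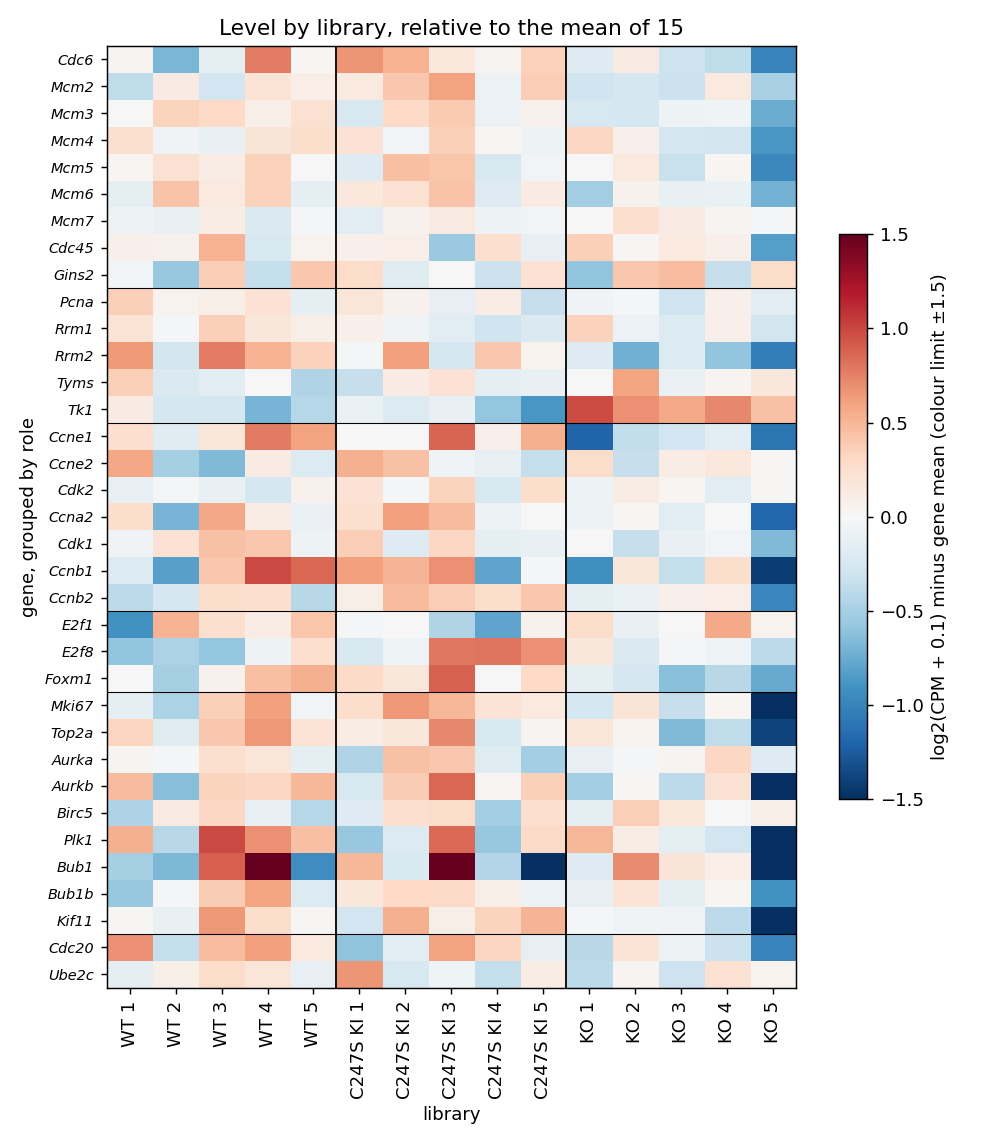
Level of each of the 35 members (rows, by role) in each of the 15 libraries (columns), as log2(CPM + 0.1) minus the mean of the gene, with colours limited at the ends of the scale. The KO 5 column is the darkest blue for most mitotic genes, and the Tk1 row has its deepest reds in the 5 KO columns.

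Markers of some other cell types, though not of all, also stood apart in KO 5. The summed level of the 5 neutrophil markers was 17.2 CPM in KO 5, beside 124 to 186 CPM in KO 1 to KO 4, 59.8 to 220 CPM in WT and 110 to 194 CPM in C247S KI, and each of the 5 was at its lowest of 15 libraries there. The 5 B cell markers summed to 2.44 CPM in KO 5, beside 5.28 to 8.27 CPM in the other KO libraries and 4.35 to 35.4 CPM elsewhere, and 4 of 5 were at their lowest. The summed stellate cell markers were lowest at 138 CPM, beside 254 to 453 CPM in the other 14 libraries, and 2 of 6 were at their lowest. The summed hepatocyte markers were lowest too, at 59350 CPM, of which Alb held 28610, and 2 of 8 were at their lowest. The summed erythroid markers were highest at 2208 CPM, beside 361 to 1869 CPM, and 2 of 7 were at their highest. Hba-a1 and Hbb-bs held 793 and 1248 CPM of that sum. The summed cholangiocyte markers were lowest at 25.7 CPM, beside 26.9 to 122.6 CPM, and 3 of 6 were at their lowest. Of the 8 Kupffer cell and macrophage markers, 0 were lowest and 0 highest in KO 5. The summed T and NK cell markers were at 5.18 CPM in KO 5, beside 2.36 to 6.76 CPM, with 1 of 7 lowest and 2 highest. The summed sinusoidal endothelial markers were at 193 CPM there, beside 98.7 to 227 CPM, with 0 of 6 lowest and 1 highest. None of the defining markers was at 0 in KO 5. The part of these cell types in the low levels of KO 5 was not tested. Between the groups as wholes, the summed hepatocyte markers were at 59350 to 79060 CPM in KO and 88490 to 107000 CPM in WT, and 1 of 8 markers, Alb, fell. Gene by gene, 4 of the 8 hepatocyte markers had a KO minus WT difference below 0 and 4 above, with a median of -0.02. The summed stellate markers were at 138 to 362 CPM in KO and 385 to 453 CPM in WT, and 1 of 6, Col3a1, fell. Of the 6 markers of sinusoidal endothelial cells 2 fell: Lyve1 was at 5.55 to 14.8 CPM in KO and 16.6 to 27.9 CPM in WT (-1.41, edgeR adjusted p = 0.00348), and Pecam1 at 12.2 to 14.98 CPM in KO and 17.7 to 31.5 CPM in WT (-0.80, adjusted p = 0.00347). Neither overlapped, while the summed level of the 6 did, at 119 to 193 CPM in KO and 98.7 to 227 CPM in WT. Of the 5 B cell markers, 1, Ms4a1, fell, on 3 to 58 counts per library. The summed neutrophil markers were at 129 ± 66.9 CPM in KO and 123 ± 62.5 CPM in WT (SD, n = 5), and none of 5 passed in edgeR or had an unadjusted p below 0.05. In KO against C247S KI, the summed cholangiocyte markers were at 25.7 to 38.7 CPM in KO and 46.7 to 122.6 CPM in C247S KI. All 6 had differences below 0, and 2 fell. Against WT (35.3 to 53.8 CPM) 3 were below 0, and none passed. In KO against C247S KI, 1 hepatocyte, 1 erythroid and 1 sinusoidal endothelial marker fell too. In C247S KI against WT no marker passed. All 8 Kupffer cell and macrophage markers were below 0 there, 5 with an unadjusted p below 0.05. The part of these differences in the results was not tested.

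Further genes of the cell cycle were read from lists drawn up for comparison. Of 28 other replication genes tested, 2 rose in KO against WT and none fell, with a median difference of 0.04 (6 had an unadjusted p below 0.05). DESeq2 called 2 more, Lig1 and Uhrf1, both lower in KO (-0.62 and -0.72 in edgeR, adjusted p = 0.0618 and 0.0673). Cdt1, which loads the helicase together with CDC6, was at 2.67 to 6.84 CPM in KO and 1.67 to 2.41 CPM in WT, with no overlap (1.04, SE 0.27, edgeR adjusted p = 0.0304). Among leave-outs of a WT or KO library, its call was lost without WT 2, 4 or 5 or KO 2 or 3 (adjusted p up to 0.0934). Mcm10, an initiation factor, was at 118 to 184 CPM in KO and 56.7 to 77.5 CPM in WT (1.04, SE 0.16, adjusted p = 0.00136). Only 8.3% of its counts stood on protein-coding transcripts and 77.6% on 1 retained-intron transcript. With only protein-coding transcripts it was still called (adjusted p = 0.00843). Against C247S KI, both rose (0.89 and 1.11), as did Gins4 of the GINS complex (0.46, adjusted p = 0.0326, lost when C247S KI 1, 4 or 5 or KO 1, 2 or 4 was left out). The Cdt1 call against C247S KI (adjusted p = 0.0453) was lost in 10 of 20 alternatives. DESeq2 called Uhrf1 in this comparison as well (-0.73 in edgeR, adjusted p = 0.0549).

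Of 47 other mitosis genes tested, none passed in any comparison in edgeR, DESeq2 or limma-voom, with 4 at an unadjusted p below 0.05 in each KO comparison. Against WT 43 of the 47 had KO differences below 0 (91.5%, beside 51.3% of all tested genes), with a median of -0.35. Without KO 5 these were 40 of 47 and -0.24. Against C247S KI they were 41 of 47 and -0.29. The median of the other mitosis genes was thus below 0 while that of the other replication genes was not, and the 2 lists were not tested against each other.

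Of 23 genes of G1 cyclins, their kinases and the RB and E2F families, 2 fell in KO against WT and none rose. Ccnd1, cyclin D1, which couples growth signals to the cycle, was at 9.53 to 12.8 CPM in KO, 21.8 to 44.8 CPM in WT and 18.7 to 31.1 CPM in C247S KI. It fell by 1.46 from WT (SE 0.19, edgeR adjusted p = 0.000416) and by 1.08 from C247S KI (adjusted p = 0.00172). E2f3, an activating E2F, fell by 0.76 from WT (SE 0.22, adjusted p = 0.0445), a call lost in 12 of 20 alternatives, among them limma-voom and leaving out any WT or KO library other than WT 1. DESeq2 called E2f3 against C247S KI too (-0.64 in edgeR, adjusted p = 0.0666).

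Of 10 cell cycle inhibitors, 2 fell in KO against WT and 3 against C247S KI. Cdkn1a, which encodes the CDK inhibitor p21, was at 6.20 to 14.8 CPM in KO, 48.2 to 131 CPM in WT and 49.4 to 148 CPM in C247S KI. It fell by 2.77 from WT (SE 0.34, edgeR adjusted p = 0.000333) and by 2.85 from C247S KI (adjusted p = 0.000108). Btg2, an antiproliferative gene, fell by 0.95 from WT (adjusted p = 0.00807) and by 1.53 from C247S KI (adjusted p = 0.000216). Gadd45b, a stress gene, fell by 1.11 from C247S KI (adjusted p = 0.0347), a call lost in 9 of 20 alternatives, limma-voom among them. DESeq2 also called Ccng1, cyclin G1, lower in KO than in WT (-0.45 in edgeR, adjusted p = 0.0651). The calls of Ccnd1, Cdkn1a, Btg2 and Mcm10 held in all 20 alternatives of each comparison. None of the genes of these 4 lists passed in C247S KI against WT in edgeR, DESeq2 or limma-voom, and 4 genes had an unadjusted p below 0.05.

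Genes of the circadian clock, which is known to gate the cell cycle in liver, also differed between the groups, with 2 of 11, Dbp and Ciart, higher in KO than in WT. Dbp, a clock output gene, was at 131 to 267 CPM in KO and 58.3 to 108 CPM in WT (1.09, SE 0.24, edgeR adjusted p = 0.0123). Arntl, which encodes the clock factor BMAL1, was at 1.10 to 1.57 CPM in KO and 1.35 to 4.05 CPM in WT (-0.99, SE 0.30, adjusted p = 0.0568). Against C247S KI, 4 of 11 clock genes rose and 3 fell, Dbp (1.59) and Arntl (-1.61) among them. An unadjusted p below 0.05 was found for 8 of 11 against WT and 7 of 11 against C247S KI. The sources used here give no times of collection, and the part of clock phase in the results above was not tested.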

How the data were processed

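Bulk RNA of 15 mouse liver libraries was analysed. The authors deposited estimated counts per transcript as whole numbers. Per the submitters' processing notes, reads were trimmed with Trimmomatic 0.39 and quantified with kallisto 0.50.1, and DESeq2 and mm10 are named. The sources used here do not name the transcript set. Reads shared by transcripts had thus been divided before deposit.

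Transcripts were matched to GENCODE M21 by identifier without version (114331 of 115911, 98.64%), and unmatched ones, 0.366% to 0.459% of a library's counts, were left out. Counts were summed per symbol. Genes passed filterByExpr by group (minimum count 10, minimum total 15). All 15 libraries entered 1 group-means fit in edgeR 4.0.16 (R 4.3.3) with TMM factors and the quasi-likelihood test, Benjamini-Hochberg adjusted over 13916 genes, threshold 0.05. SE is the log2 difference over the root of F, and intervals are 95%. CPM are TMM-scaled. TPM use annotated transcript lengths. No 2 libraries of a group were duplicates (in 30 pairs of libraries, chi-square was 22.8 to 369 times its degrees of freedom). Replicate numbers did not pair the libraries (correlations of same-numbered deviations -0.14 to 0.38).

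The members, lists and tests were chosen with earlier results of these data known. Full values are given for members past the threshold and, per role, for the member with the lowest p in KO against WT and that with the highest mean count (13 members). Of the 4 wider cell cycle lists, each gene past the threshold is named; clock genes and cell type markers were picked for naming after their values were seen. The fit was tested on simulated data, with 200 of 13759 genes changed 1.5-fold and 200 of 13762 changed 2-fold for KO against WT. For C247S KI against WT these were 200 of 13753 and 200 of 13726. Alternatives were DESeq2 1.42.0, limma-voom (limma 3.58.1), other scaling factors and filters, a replicate block, fewer libraries (counts out of 20 leave out libraries of the 2 groups compared), 2 groups alone and only protein-coding transcripts. Leaving out KO 5 or Tk1 from the summed level was added after seeing the data. Figures were drawn with matplotlib 3.10.9.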

Additional observations from a re-analysis of the deposited data

Results flagged for a closer look

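Within groups of 5 libraries, a library was marked where its gap to the nearest other exceeded 0.71 of the group's range. This held in 4 of 105 groups of members (35 genes in 3 genotypes), and chance marks about 1 in 20 groups. In KO 5, Ccna2, cyclin A2, was at 0.915 CPM, beside 1.93 to 2.22 CPM in the other KO libraries. Ccnb2, cyclin B2, was at 0.661 CPM there, beside 1.26 to 1.503 CPM. In C247S KI 3, Foxm1 was at 3.08 CPM, beside 1.63 to 2.01 CPM. In WT 2, Aurkb was at 0.639 CPM, beside 1.33 to 1.53 CPM. Of the summed levels, the mean log2 CPM of the tested members was 1.20 in KO 5, beside 1.75 to 1.90 in the other KO libraries, and the sum of the S-phase and mitotic cyclins and kinases was 18.2 CPM in WT 2, beside 20.9 to 22.0 CPM in the other WT libraries.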

How the results depend on the processing

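No member was called in C247S KI against WT in any alternative run. In KO against WT, 2 or 3 members were called in each. In KO against C247S KI, 4 were called, 2 with limma-voom, with no count filter or without WT 1, C247S KI 3 and C247S KI 5, 1 to 4 when a C247S KI or KO library was left out and 2 to 5 when a WT library was (5 without WT 1, with Mcm2 added). The count was 1, Tk1, without C247S KI 1, C247S KI 5, KO 2 or KO 5. Of all genes, 12 were called in C247S KI against WT, 65 with DESeq2, 20 with no count filter, 6 with the replicate block, 6 with the 2 groups alone and 4 to 24 when a library of the groups compared was left out. In KO against WT, 939 were called, 1493 with DESeq2, 1542 without those 3 libraries and 521 to 928 when one of theirs was left out. In KO against C247S KI, 1427 became 784 to 2272. The summed level (log2, pooled SD 0.134) in KO against WT moved from -0.08 to -0.26 as a mean of log2 CPM and to -0.23 without Tk1, and against C247S KI from -0.10 to -0.28 and -0.24. With KO 5 left out and Tk1 kept, it was -0.016 against WT and -0.028 against C247S KI. Under the replicate block, Foxm1 in KO against C247S KI (adjusted p = 0.0723) was the one member call lost. The replicate numbers are shared labels only, and the block is not read as a weaker effect. The cause of these moves was not tested.

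Of 780 values of the 13 named members, 17 changed sign, all of them uncalled. In C247S KI against WT without WT 1, C247S KI 3 and C247S KI 5, Pcna was at 0.07, Tk1 at 0.127, Foxm1 at -0.012 and Ube2c at -3e-04. Ube2c was at -0.013 with limma-voom and -0.002 with the block. With 1 library left out, Tk1 ranged from -0.145 to 0.061, Ccne1 from -0.181 to 0.11 and Ube2c from -0.202 to 0.101. In KO against C247S KI, Ube2c ranged from -0.223 to 0.082.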

Other observations

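Because Tk1 and Rrm2 moved apart, 14 other genes of deoxynucleotide supply were read, a list chosen after the values were seen, and 13 were tested. In KO against WT, Tymp, the phosphorylase that breaks down thymidine, rose by 0.60 (edgeR adjusted p = 0.0454) and Cmpk1, a pyrimidine monophosphate kinase, fell by 0.38 (adjusted p = 0.0418). Both calls were lost in 10 of 20 alternatives. Tymp was at 120, 133, 145, 131 and 125 CPM in KO, at 65.6, 70.2, 88.6, 75.2 and 133 CPM in WT and at 58.4, 60.8, 39.6, 58.4 and 61.5 CPM in C247S KI. WT 5 lay among the KO values and the other WT libraries below them. In KO against C247S KI, Tymp rose by 1.23 (adjusted p = 0.000393), a call that held in all 20 alternatives. Dguok, mitochondrial deoxyguanosine kinase (0.38, adjusted p = 0.0356), and Slc29a1, a nucleoside transporter (0.39, adjusted p = 0.0369), rose as well, each with the call lost in 10 of 20 alternatives. No gene of the list passed in C247S KI against WT in edgeR, and 3 of 13 had an unadjusted p below 0.05.

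The share of a gene's counts on each transcript was compared for 34 transcripts of 12 members, in 102 exact two-sided permutation tests whose smallest possible p is 0.00794. None had an adjusted p below 0.05, and the lowest was 0.549. Over 102 tests, a single test at the smallest possible p could not reach an adjusted p of 0.05. The absence of calls therefore does not show that the shares were unchanged. For Cdk2, ENSMUST00000026415 held 0.0, 3.5, 14.6, 8.4 and 31.2% of the counts in KO and 29.9, 28.8, 30.2, 44.7 and 27.3% in WT (11.6 ± 12.3% against 32.2 ± 7.1%, SD, n = 5, exact permutation p = 0.0397, adjusted p = 0.549). KO 5 lay among the WT values and the other 4 below them, while the gene's summed level differed little between the groups.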
